A study of Mus musculus with 9 samples.

Results

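Peg10, Sgce, Casd1 and Ppp1r9a lie side by side on proximal mouse chromosome 6, and Mest and Copg2 lie farther along the same chromosome. These 6 genes, of 19938 genes tested, were taken by gene symbol from the array's transcript-level features that carry a single symbol, and each was measured by 1 such feature. They were chosen by their signals on these same arrays, with low Peg10, Sgce and Mest signals in cells without β-catenin already known, so their values are given here as a description and none of them is tested. In the order of the 1099 measured genes of the chromosome, Casd1, Sgce, Peg10 and Ppp1r9a held places 12 to 15, and Mest and Copg2 held places 131 and 133.

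Expression was measured in mouse embryonic stem cells on 9 Affymetrix whole-transcript arrays, 3 per group. The null Eα cells had both β-catenin alleles deleted and stably expressed a fusion of E-cadherin with α-catenin. The null cells had both alleles deleted and no fusion, and the flox cells, the study's controls, had lost 1 allele and kept the other in floxed form. Every group had the same mixed 129S6 and C57BL/6 strain background and was grown on gelatin-coated plates in medium with serum and leukaemia inhibitory factor, then harvested before confluence. No group was wild type, since the controls carried 1 deleted allele. The labels call the replicates biological but do not say whether they were separate lines or separate cultures of 1 line, so genotype and line cannot be told apart, and the p-values measure the spread between these samples only. The promoter of the fusion construct was not given in the sources used here.

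An imprinted gene is expressed mainly from the copy inherited from 1 parent, and the choice is set by DNA methylation laid down in the germ line and kept afterwards in the body's cells. Peg10 and Sgce start back to back at a shared CpG-rich control region that is methylated on the maternal copy, and both are expressed from the paternal copy. Mest is likewise paternally expressed and has a control region of the same kind at its promoter, while Casd1, Ppp1r9a and Copg2 show biallelic or maternally biased expression that depends on the mouse tissue. The arrays give the summed RNA of both copies, so no value below speaks of an allele.

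Array signals are on a log2 scale, on which 1 unit is a doubling, and they are relative values for each gene. Array medians over all features were 5.95 to 6.06. The lower quartile of the features was 4.56 to 4.63 for null Eα, 4.52 to 4.55 for null and 4.37 to 4.40 for flox. Arrays of 1 group correlated at 0.986 or more over all features. Null Eα array 3 correlated with the null arrays at 0.978 to 0.980, above the 0.964 to 0.970 of the other null Eα arrays. Values without it are given for the 6 genes in null Eα against null. Ctnnb1, which encodes β-catenin, read 10.23, 10.13 and 10.32 in null Eα cells, 10.55, 10.50 and 10.47 in null cells and 11.13, 11.13 and 11.21 in flox cells. Where its probes lie relative to the deleted part was not given in the sources used here, so this gene does not check the labels.

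Peg10, a gene of retrotransposon origin that the mouse placenta needs, read 5.73, 5.90 and 5.48 in null Eα cells, 5.55, 5.62 and 5.51 in null cells and 11.38, 11.31 and 11.40 in flox cells. Every array without β-catenin was more than 5 log2 units below every flox array. The mean difference was -5.66 ± 0.10 log2 units (SE) for null Eα against flox, which left 1.98% of the flox signal, and it was the lowest of the 19938 differences. For null against flox it was -5.81 ± 0.10, or 1.79% of the flox signal, and rank 8 from the lowest. Null Eα and null arrays overlapped, with a difference of 0.15 ± 0.10 (95% interval -0.08 to 0.37).

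Sgce encodes ε-sarcoglycan, a membrane protein of the dystrophin-associated complex. It read 6.06, 5.86 and 5.58 in null Eα cells, 5.72, 6.16 and 5.63 in null cells and 7.74, 8.19 and 8.04 in flox cells. The 6 arrays without β-catenin were mixed with each other and all lay below the lowest flox array. Its mean was 5.84 ± 0.24 in null Eα cells, 5.84 ± 0.28 in null cells and 7.99 ± 0.23 in flox cells (SD, n = 3 each). The difference against flox was -2.16 ± 0.17 log2 units (SE) in both lines, or 22.4% of the flox signal, a smaller step than that of Peg10 across the shared control region.

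**Figure D1:**
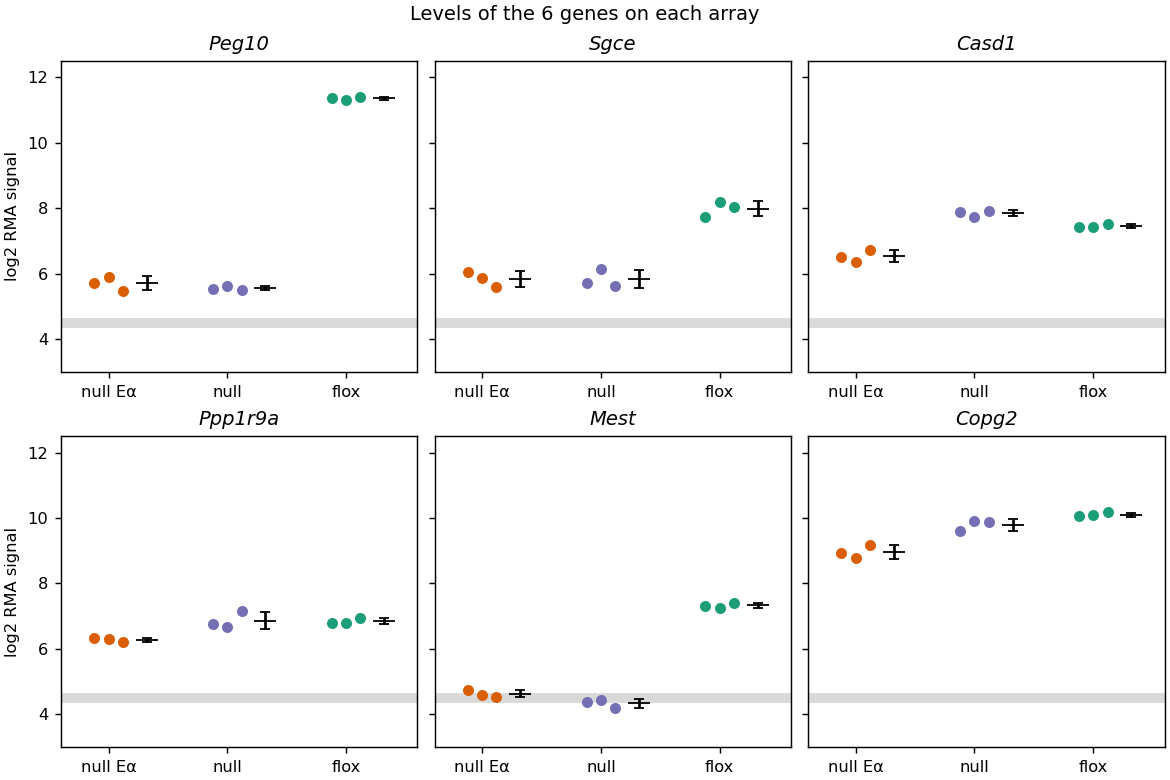
Log2 RMA signal (vertical axis) of the 6 genes on each of the 9 arrays, grouped as null Eα, null and flox, with points for arrays, bars for the group mean ± SD (n = 3) and a grey band for the range of the 9 arrays' lower quartiles (4.37 to 4.63). Peg10, Sgce and Mest are low on all 6 arrays without β-catenin, while Casd1, Ppp1r9a and Copg2 are lowest on the null Eα arrays, and Mest reaches the grey band.

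The outer genes of the Peg10 locus had another pattern. Casd1, whose product adds acetyl groups to sialic acids, read 6.52, 6.37 and 6.72 in null Eα cells, 7.89, 7.74 and 7.93 in null cells and 7.43, 7.43 and 7.51 in flox cells. The groups did not overlap, with the null arrays highest and the null Eα arrays lowest. The difference was -0.92 ± 0.10 log2 units (SE) for null Eα against flox, 0.40 ± 0.10 for null against flox and -1.31 ± 0.10 for null Eα against null, so null Eα cells held 40.2% of the null signal.

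Ppp1r9a encodes neurabin, an actin-binding scaffold for protein phosphatase 1. It read 6.34, 6.29 and 6.21 in null Eα cells, 6.75, 6.67 and 7.15 in null cells and 6.80, 6.77 and 6.95 in flox cells. Null and flox arrays overlapped, with a difference of 0.02 ± 0.12 (95% interval -0.25 to 0.28), and all null Eα arrays lay below both. The null Eα difference was -0.56 ± 0.12 against flox and -0.58 ± 0.12 against null.

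At the second locus, Mest, which encodes a membrane protein of the hydrolase fold family, read 4.74, 4.60 and 4.53 in null Eα cells, 4.37, 4.43 and 4.19 in null cells and 7.31, 7.26 and 7.40 in flox cells. Both lines without β-catenin were at or near the lower quartile of their own arrays, so the differences against flox are lower bounds in size. They were -2.70 ± 0.09 log2 units (SE) for null Eα, or 15.4% of the flox signal, and -2.99 ± 0.09 for null, or 12.6%. The null Eα arrays were all above the null arrays, by 0.29 ± 0.09, with both groups near that quartile.

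Copg2, the neighbour that runs towards Mest from the other strand, encodes a γ subunit of the COPI vesicle coat. It read 8.93, 8.76 and 9.18 in null Eα cells, 9.59, 9.90 and 9.88 in null cells and 10.05, 10.10 and 10.17 in flox cells. The groups did not overlap, and the larger step lay between the null Eα and null arrays. The difference was -1.14 ± 0.12 log2 units (SE) for null Eα against flox, -0.32 ± 0.12 for null against flox and -0.83 ± 0.12 for null Eα against null.

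Counts over the 6 genes repeat the values that led to their choice. For null Eα against flox, 6 of 6 were lower with no overlap between groups, beside 33.6% of all genes, and 0 were higher, beside 35.9%. For null against flox, 4 were lower, beside 31.9% of all genes, and 1 was higher, beside 35.5%. For null Eα against null, 3 were lower, beside 21% of all genes, and 1 was higher, beside 22%. The median difference of the 6 genes was -1.65, -1.24 and -0.29 log2 units for null Eα against flox, null against flox and null Eα against null. Over all genes it was 0.07, 0.06 and 0.05, and over the 9969 genes whose mean signal was at or above the median of gene means (6.45), called the brighter genes below, it was -0.29, -0.16 and -0.08. Without null Eα array 3, the null Eα against null difference was -1.40 for Casd1, -0.54 for Ppp1r9a and -0.94 for Copg2, and 0.26 for Peg10, 0.13 for Sgce and 0.34 for Mest.

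The 6 profiles over the 9 arrays were compared after centring each on its own mean. Mest and Sgce were 0.38 log2 units apart (root mean square), and Casd1, Ppp1r9a and Copg2 were 0.30 to 0.33 apart. Peg10, with its larger span, was 1.36 from Mest and 1.70 from Sgce, and Mest was 1.11 from its neighbour Copg2. Of all other genes on the array, those nearest in profile to Peg10 were Obox6, Uqcc2, Terc, Platr8 and Ceacam1, at 0.68 to 1.06. Ube2l6 (0.10), Pigl, Ccdc130, Napepld and Eps8 (0.17) were nearest to Sgce, and Eps8 also lies on chromosome 6. Camk2b (0.09), Tm4sf5, Mrpl34, Rasgrp1 and Tle5 (0.17) were nearest to Mest. The genes nearest to Casd1 were E2f6 (0.08), Ncs1, Mfsd2a, Rpn1 and Mpp6 (0.11), of which Rpn1 and Mpp6 lie on chromosome 6 too, and those nearest to Copg2 were Flot2 (0.07), Tnfrsf10b, Pdia5, Tmem94 and Nlk (0.10). All these profiles share the same 9 arrays in 3 groups, so a small distance says mainly that the group means are alike.

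The DNA at the gene starts, where available, was searched for the letters bound by Zfp57. This zinc finger protein holds methylation at imprinted control regions in mouse embryonic stem cells. Zfp57 binds methylated TGCCGC, which reads GCGGCA on the other strand. RefSeq promoter windows of 300 bases (GRCm38.p6, 250 before to 50 after the start) matched 4 of the 6 genes, Casd1, Ppp1r9a, Mest and Copg2, in 8 windows. No window was available for Peg10 or Sgce, so their shared control region was not searched. Shown are the CpG-rich Mest window, and the Casd1 and Copg2 windows because they also hold the letters, each 5′ to 3′ on the gene's own strand with the Zfp57 letters on either strand in capitals. The windows are chr6:30737800-30738099 (plus strand) for Mest, chr6:4600661-4600960 (plus strand) for Casd1 and chr6:30896745-30897044 (minus strand) for Copg2.
Mest: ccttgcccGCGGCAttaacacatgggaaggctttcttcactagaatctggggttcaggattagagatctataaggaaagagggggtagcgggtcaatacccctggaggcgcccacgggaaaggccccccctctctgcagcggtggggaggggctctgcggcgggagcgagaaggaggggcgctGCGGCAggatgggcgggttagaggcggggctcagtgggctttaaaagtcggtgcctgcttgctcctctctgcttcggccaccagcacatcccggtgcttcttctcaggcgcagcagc
Casd1: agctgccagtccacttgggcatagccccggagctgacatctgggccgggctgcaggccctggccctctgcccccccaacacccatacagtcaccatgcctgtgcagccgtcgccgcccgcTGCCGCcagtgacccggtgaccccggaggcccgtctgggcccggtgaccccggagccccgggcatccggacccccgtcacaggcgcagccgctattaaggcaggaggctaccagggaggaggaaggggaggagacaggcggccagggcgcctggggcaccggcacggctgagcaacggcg
Copg2: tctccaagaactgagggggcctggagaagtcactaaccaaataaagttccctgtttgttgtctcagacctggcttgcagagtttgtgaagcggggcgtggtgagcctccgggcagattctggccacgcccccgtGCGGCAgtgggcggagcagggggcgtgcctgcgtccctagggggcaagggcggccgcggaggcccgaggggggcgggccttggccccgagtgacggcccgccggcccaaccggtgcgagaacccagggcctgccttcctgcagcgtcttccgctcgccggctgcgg

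The Mest window held the letters 2 times, at 242 and 67 bases before the start, and 17 CpG pairs. The Casd1 window held them 1 time, 130 bases before the start, with 23 CpG pairs, and the Copg2 window 1 time, 116 bases before the start, with 25 CpG pairs. An overlapping Mest window that starts 3 bases later held the same matches, and the upstream Mest window, the second Casd1 window and both Ppp1r9a windows held none. Of all 32851 windows, 11.6% held the letters at least 1 time, 1.53% held them 2 or more times, and the median number of CpG pairs was 7. The letters contain a CpG pair themselves, and their share among windows as CpG-rich as those shown was not counted. At least as many CpG pairs as in the Mest window were found in 31.4% of windows. The Ppp1r9a window with 48 CpG pairs held no match. The letters are a description of the reference sequence, and neither binding nor methylation was measured here.

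An intron of Mest holds the gene of miR-335, a microRNA that sits between Mest and Copg2 in gene order and whose mature strands are shown because they come from the same transcription unit. RefSeq places them on the plus strand at chr6:30741314-30741336 (5p) and chr6:30741354-30741375 (3p), and the seed, bases 2 to 8, is in capitals.
mmu-miR-335-5p: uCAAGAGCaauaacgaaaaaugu
mmu-miR-335-3p: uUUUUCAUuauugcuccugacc

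The seeds differ between the strands. The Mir335 feature read 4.39, 4.37 and 4.40 in null Eα cells, 4.26, 4.17 and 4.17 in null cells and 4.15, 3.93 and 4.10 in flox cells. All 9 values were at or below the lower quartile of their arrays, so this feature gives no level of the microRNA in any group.

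The genes around each locus were taken by place alone, 10 measured genes on each side, 40 in all, so their differences could be tested with limma over all 19938 genes. In null Eα against flox, 19 neighbours were called higher and 13 lower at an adjusted p under 0.05, where 32.1% and 31.6% of all genes were called. The higher calls depended on the processing. With quantile normalization 7 neighbours were called higher and 13 lower, and without dim genes 5 higher and 13 lower. The lower quartile of all features was higher on the null Eα arrays than on the flox arrays. In null against flox, 13 were called higher and 6 lower, beside 26.5% and 28.7% of all genes. In null Eα against null, 4 were called higher and 16 lower, beside 13.6% and 18.1%. Of the 15 brighter neighbours, 13 were called lower and 2 higher in null Eα against flox, beside 52.1% and 18.9% of all brighter genes. In null against flox, 6 of them were called lower and 5 higher, beside 45% and 26.4%. Of the 25 dimmer neighbours, 17 were called higher in null Eα against flox and 8 in null against flox, beside 32.1% and 26.5% of all genes. The share among all dimmer genes was not counted. For null Eα against flox it must exceed 32.1%, since brighter genes had 18.9%, so 32.1% is too low a reference for the 17. For null against flox it must be close to 26.5%, since brighter genes had 26.4%.

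Col1a2, a collagen chain made by fibroblasts and other mesenchymal cells, is the gene next to Casd1 and moved opposite to Peg10. It read 10.10, 9.60 and 9.85 in null Eα cells, 11.09, 10.95 and 11.02 in null cells and 6.32, 6.23 and 6.04 in flox cells. The 3 groups were far apart. It rose by 3.65 ± 0.12 log2 units (SE) in null Eα against flox (adjusted p = 2.29e-08) and by 4.82 ± 0.12 in null against flox (adjusted p = 1.35e-09).

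Among the neighbours with maternal expression in some mouse tissues, Calcr, the calcitonin receptor gene, read 5.87, 5.67 and 6.36 in null Eα cells, 7.60, 7.30 and 7.09 in null cells and 5.37, 5.20 and 5.25 in flox cells. It rose in both lines against flox, by 0.69 ± 0.17 log2 units (SE) for null Eα (adjusted p = 0.00606) and 2.06 ± 0.17 for null (adjusted p = 3.23e-06), and the null Eα against null difference was -1.37 ± 0.17 (adjusted p = 0.000285). Tfpi2, a serine protease inhibitor, rose by 1.01 ± 0.18 in null Eα against flox (adjusted p = 0.000773) and by 1.44 ± 0.18 in null against flox (adjusted p = 6.16e-05). Pon2, a paraoxonase, rose by 0.52 ± 0.16 (adjusted p = 0.0159) and by 1.36 ± 0.16 (adjusted p = 3.33e-05) in these comparisons. Klf14, a zinc finger gene beyond Copg2, rose by 0.75 ± 0.08 (adjusted p = 2.95e-05) and 0.48 ± 0.08 (adjusted p = 0.000615) in the same comparisons. Asb4, for an ankyrin repeat protein, rose by 0.52 ± 0.11 in null Eα against flox (adjusted p = 0.00189), while its null against flox difference of 0.13 ± 0.11 was not called (adjusted p = 0.306). Asb4 was dim, at 5.05, 5.16 and 5.50 in null Eα cells and 4.70, 4.77 and 4.68 in flox cells. The lower quartile of all features was also higher on the null Eα arrays than on the flox arrays. Pon3 was called in neither comparison with flox, at -0.23 ± 0.10 and -0.22 ± 0.10.

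**Figure D2:**
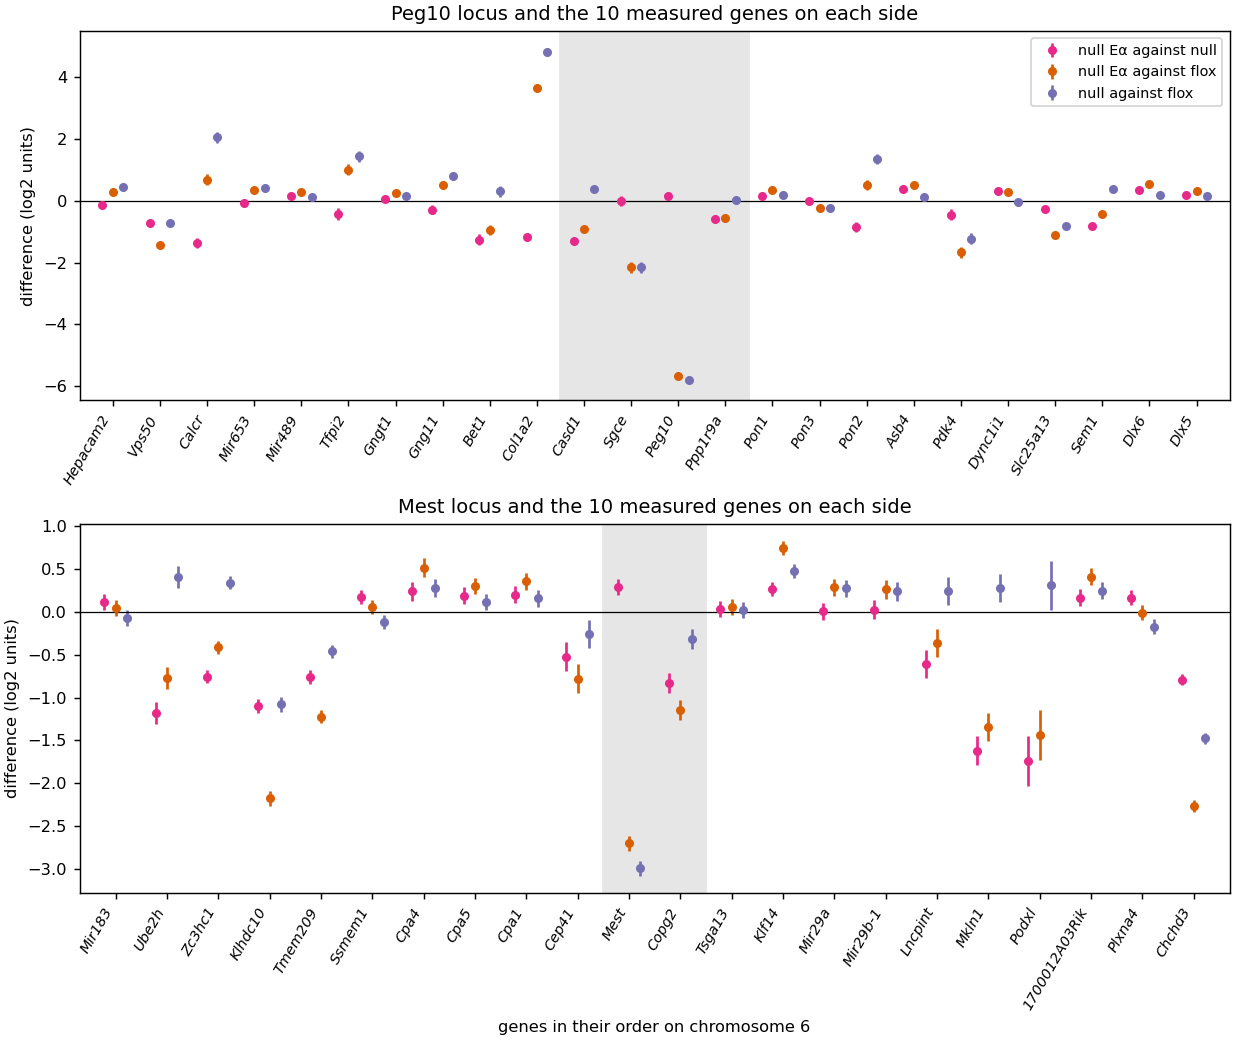
Limma differences in log2 units ± SE (vertical axis) for the genes of each locus (grey) and the 10 measured genes on each side, in chromosome order, for null Eα against null, null Eα against flox and null against flox. Peg10 reaches -5.66 and -5.81 against flox while Col1a2, close by, reaches 3.65 and 4.82.

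Other neighbours fell in both lines. At the Peg10 side, Pdk4, a kinase that restrains pyruvate dehydrogenase, fell by 1.67 ± 0.17 log2 units (SE) in null Eα against flox (adjusted p = 1.5e-05) and by 1.22 ± 0.17 in null against flox (adjusted p = 0.000121), and its null Eα against null difference of -0.45 ± 0.17 was not called (adjusted p = 0.0671). Vps50, of an endosomal tethering complex, fell by 1.43 ± 0.07 (adjusted p = 1.28e-07) and by 0.72 ± 0.07 (adjusted p = 8.99e-06) against flox. Slc25a13, a mitochondrial aspartate and glutamate carrier, fell by 1.09 ± 0.08 (adjusted p = 1.54e-06) and by 0.83 ± 0.08 (adjusted p = 8.61e-06) in the same 2 comparisons. At the Mest side, Chchd3, a protein of the mitochondrial inner membrane, fell by 2.27 ± 0.07 in null Eα against flox (adjusted p = 1.37e-08) and by 1.48 ± 0.07 in null against flox (adjusted p = 3.78e-08).

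Klhdc10, of the kelch domain family, fell by 2.18 ± 0.09 log2 units (SE) in null Eα against flox (adjusted p = 4.9e-08) and by 1.08 ± 0.09 in null against flox (adjusted p = 2.29e-06). Its 3 null arrays all read 8.48, with an SD of 0. Mkln1, which encodes muskelin, fell by 1.34 ± 0.17 in null Eα against flox (adjusted p = 6.5e-05) and by 1.62 ± 0.17 against null (adjusted p = 7.43e-05), and its null against flox difference of 0.28 ± 0.17 was not called (adjusted p = 0.18).

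Podxl, a sialomucin of the cell surface, read 6.83, 7.12 and 8.28 in null Eα cells, 9.26, 8.98 and 9.22 in null cells and 8.85, 8.82 and 8.86 in flox cells. Null Eα array 3 lay nearest the other groups, and the difference was -1.43 ± 0.29 log2 units (SE) against flox (adjusted p = 0.00172) and -1.74 ± 0.29 against null (adjusted p = 0.00138). Bet1, a vesicle SNARE next to Col1a2, fell by 1.26 ± 0.18 in null Eα against null (adjusted p = 0.000493), and Ube2h, a ubiquitin-conjugating enzyme, by 1.18 ± 0.13 (adjusted p = 0.000109).

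The lower null Eα signal reached far beyond the 2 loci. Among the 443 brighter genes of chromosome 6, the median difference was -0.44 log2 units for null Eα against null, the lowest of the 20 chromosomes compared, with chromosome 11 next at -0.35. Cut in gene order into 5 equal stretches, the chromosome had medians of -0.76, -0.71, -0.66, -0.03 and -0.04 for that comparison, so the shift held over the first 3 stretches and was near 0 in the other two. Against flox, the null Eα medians were -0.92, -0.43, -0.96, -0.51 and -0.33, and those of null cells were -0.05, 0.29, -0.27, -0.43 and -0.27. Both loci lie in stretch 1.

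Of the 84 brighter genes of stretch 1 other than the members, 77 were below 0 for null Eα against null and 69, or 82.1%, were called lower, beside 30.9% of all brighter genes. Their median was -0.76 log2 units, against -1.31 for Casd1, -0.83 for Copg2 and -0.58 for Ppp1r9a, so these 3 members lay within the range of the genes around them. Ranked with these 84 genes from the lowest, Casd1 was at place 12, Copg2 at place 34 and Ppp1r9a at place 58, while Sgce and Peg10 were at places 78 and 80; Mest, near background in both groups, is not placed. For null Eα against flox, Peg10, Mest and Sgce were at places 1, 3 and 8, where the 84 genes had a median of -0.87. These low places repeat the values that led to the choice of the 3 genes. Mest is ranked there although its mean signal lies below the cut for brighter genes. When each array was shifted by the median of this stretch, a scaling chosen after seeing the data, the null Eα against flox differences were -4.75 for Peg10, -1.79 for Mest and -1.25 for Sgce, against -0.01 for Casd1, -0.23 for Copg2 and 0.35 for Ppp1r9a.

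**Figure D3:**
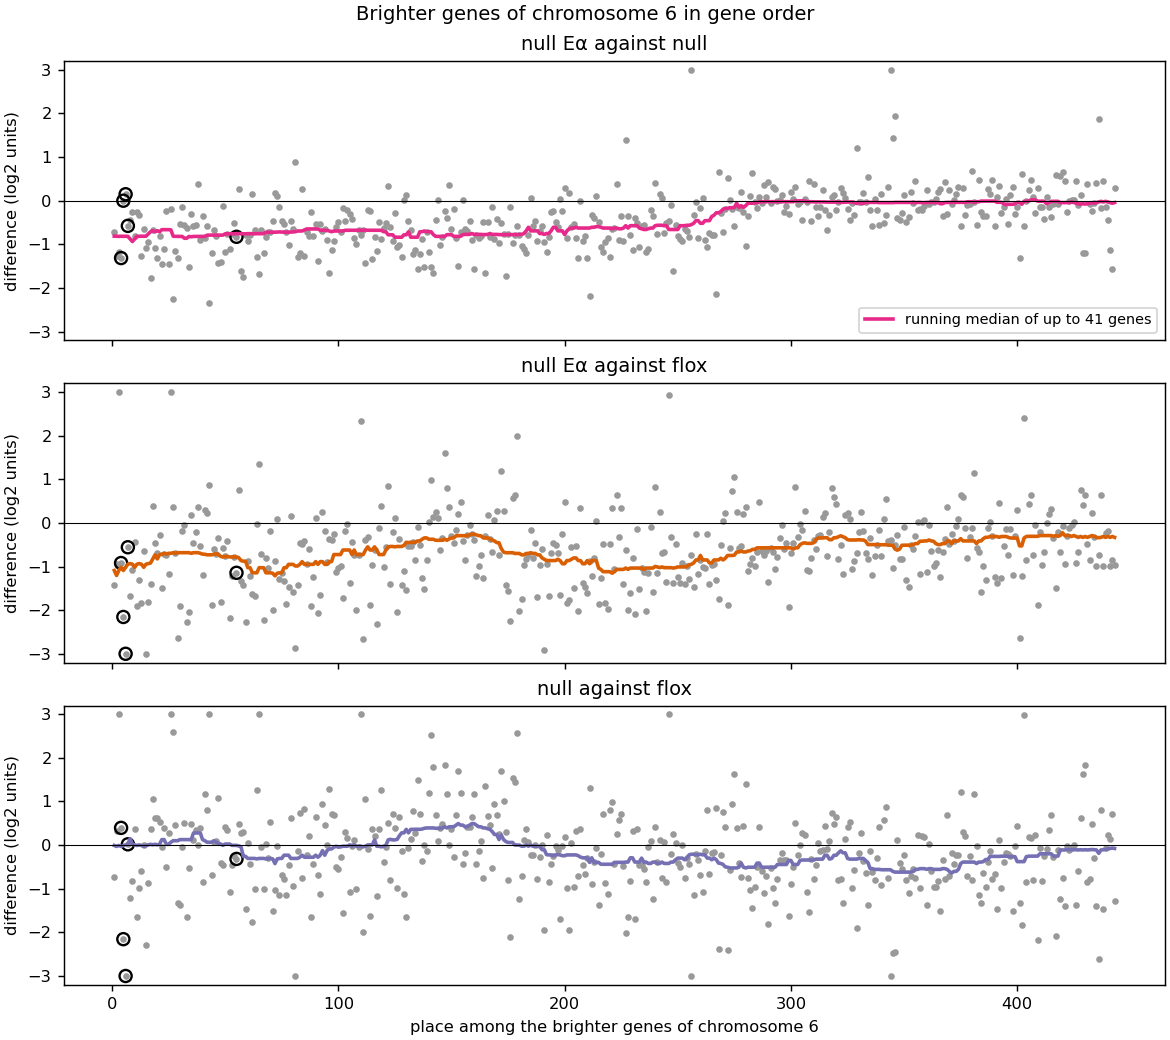
Difference in log2 units (vertical axis) for each of the 443 brighter genes of chromosome 6 by place in gene order, with a running median over up to 41 genes; circles mark the 5 members among the brighter genes (Mest is dimmer and not drawn) and points beyond 3 units are drawn at the edge. For null Eα against null the running median lies near -0.7 over the first 3 stretches and near 0 in the other two.

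Of 21 paternally expressed genes measured outside the 2 loci, 7 rose and 8 fell in null Eα against flox, beside 32.1% and 31.6% of all genes. In null against flox 5 rose and 8 fell, beside 26.5% and 28.7%, and in null Eα against null 7 rose and 4 fell, beside 13.6% and 18.1%. Nnat, a small membrane protein gene expressed in neural tissue, read 5.53, 5.38 and 5.72 in null Eα cells, 5.53, 5.57 and 5.68 in null cells and 7.41, 7.42 and 7.28 in flox cells. The 6 arrays without β-catenin were mixed and all lay below flox, with differences of -1.83 ± 0.10 log2 units (SE) in null Eα against flox (adjusted p = 1.98e-07) and -1.78 ± 0.10 in null against flox (adjusted p = 1.37e-07). Usp29 fell by 1.36 ± 0.10 in null against flox (adjusted p = 1.11e-06). That is a lower bound in size, since the null arrays read 4.15 to 4.50, below their lower quartile. Igf2, Peg12 and Inpp5f rose by 0.81 ± 0.16, 0.59 ± 0.10 and 0.39 ± 0.09 in null against flox, all called. The null Eα against null difference of Igf2 was -1.51 ± 0.16, also called. Slc38a4, an amino acid transporter, fell by 1.65 ± 0.10 in null against flox (adjusted p = 3.38e-07) and rose by 1.07 ± 0.10 in null Eα against null (adjusted p = 4.68e-05). Impact rose by 0.87 ± 0.09 (adjusted p = 1.77e-05) and Peg12 by 0.69 ± 0.10 (adjusted p = 0.000255) in null Eα against flox, where Ndn fell by 1.25 ± 0.19 (adjusted p = 0.000316).

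Of 20 maternally expressed genes, the neighbours above included, 13 rose and 4 fell in null Eα against flox (all genes 32.1% and 31.6%), 12 rose and 4 fell in null against flox (26.5% and 28.7%), and 3 rose and 6 fell in null Eα against null (13.6% and 18.1%). Meg3, the maternally expressed non-coding RNA of the Dlk1 locus, rose by 1.57 ± 0.17 log2 units (SE) for null Eα (adjusted p = 3.07e-05) and 4.52 ± 0.17 in null cells (adjusted p = 1.54e-08), both against flox. Dcn, a matrix proteoglycan also made by fibroblasts, rose by 3.62 ± 0.49 for null Eα (adjusted p = 0.000114) and 4.82 ± 0.49 in null cells (adjusted p = 1.2e-05), both lower bounds because flox read 4.13 to 4.30, below the lower quartile. Phlda2, a gene that limits growth of the mouse placenta, fell in both lines, with differences of -1.13 ± 0.10 for null Eα (adjusted p = 5.34e-06) and -1.24 ± 0.10 in null cells (adjusted p = 2.04e-06).

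**Figure D4:**
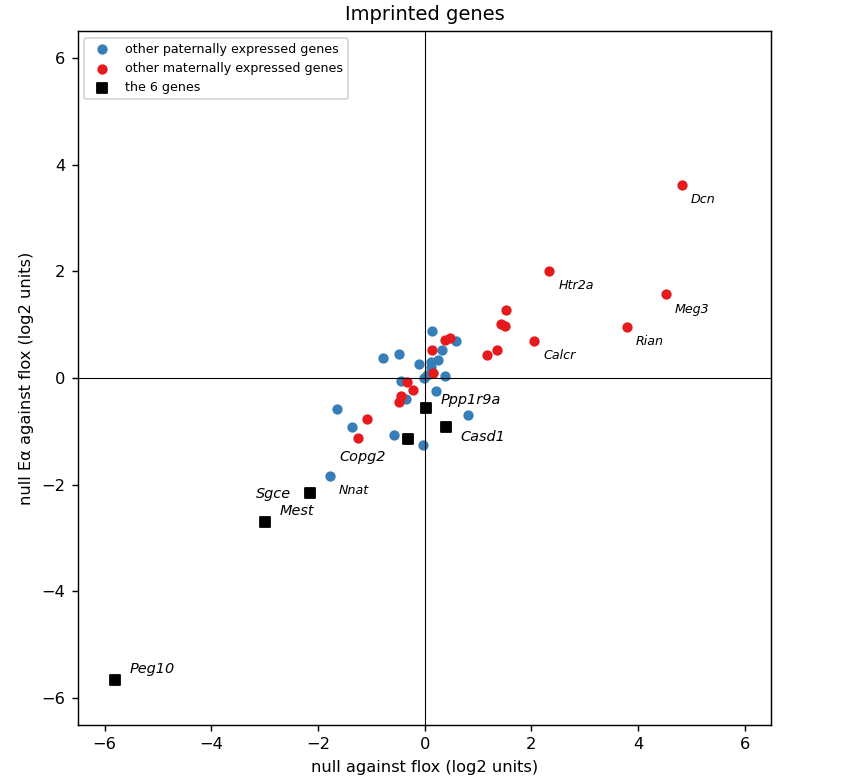
Difference of null Eα against flox (vertical axis) and of null against flox (horizontal axis), in log2 units, for the 6 genes (black squares) and the other paternally and maternally expressed genes measured (points); both axes share the flox arrays. Peg10, Mest and Sgce lie at the lower left near the line of equal change, and Dcn and Meg3 lie at the right.

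Of 15 listed genes that keep or change imprints, those called singly were counted, and the list itself was not tested. In null Eα against flox, 2 rose and 7 fell, beside 32.1% and 31.6% of all genes. In null against flox, 3 rose and 10 fell, beside 26.5% and 28.7%, and in null Eα against null, 8 rose and 1 fell, beside 13.6% and 18.1%. Zfp57 read 10.88, 11.28 and 10.76 in null Eα cells, 9.33, 9.49 and 9.87 in null cells and 12.03, 12.06 and 12.01 in flox cells. The null Eα arrays lay between the other groups without overlap, with a difference of -1.06 ± 0.15 log2 units (SE) against flox (adjusted p = 0.000196) and 1.41 ± 0.15 against null (adjusted p = 0.000111).

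Dnmt3l, a partner of the DNA methyltransferases that lay down methylation, read 10.67, 10.77 and 10.24 in null Eα cells, 4.59, 4.66 and 4.17 in null cells and 10.84, 10.82 and 10.71 in flox cells. Null Eα and flox arrays differed by -0.23 ± 0.16 (adjusted p = 0.215), and null Eα was 6.09 ± 0.16 above null (adjusted p = 1.9e-08), a lower bound since null arrays were near their lower quartile. Tet2, an enzyme that oxidises methylcytosine, fell by 1.51 ± 0.19 in null Eα against flox (adjusted p = 6.25e-05) and by 3.64 ± 0.19 in null against flox (adjusted p = 9.54e-08). Dppa3, which protects imprints in the mouse zygote, fell by 1.04 ± 0.21 (adjusted p = 0.00163) and by 2.48 ± 0.21 (adjusted p = 3.13e-06) in the same comparisons. For null Eα against null, Tet2 rose by 2.13 ± 0.19 (adjusted p = 2.84e-05) and Dppa3 by 1.44 ± 0.21 (adjusted p = 0.000613), beside 0.15 ± 0.10 for Peg10, 0.29 ± 0.09 for Mest and a difference within its SE of 0.17 for Sgce. With stretch 1 of chromosome 6 centred, those of Peg10, Mest and Sgce were 0.94, 1.08 and 0.79. That centring shifts all members upward together, and Casd1, Ppp1r9a and Copg2 were then -0.53, 0.21 and -0.04. Mest lay near background in both groups. Whether Peg10, Mest and Sgce rose in the cells was not tested.

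Zfp445, a second imprint-keeping zinc finger gene, rose by 0.78 ± 0.08 for null Eα (adjusted p = 2.51e-05) and 0.90 ± 0.08 in null cells (adjusted p = 6.85e-06), both against flox. The methyltransferase gene Dnmt3b rose by 0.75 ± 0.12 for null Eα (adjusted p = 0.000466) and 0.95 ± 0.12 in null cells (adjusted p = 8.24e-05).

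Markers of the cell state were counted beside the same shares of all genes called higher and lower, 32.1% and 31.6% for null Eα against flox, 26.5% and 28.7% for null against flox, and 13.6% and 18.1% for null Eα against null. Of 10 stem cell markers, 1 rose and 5 fell in null Eα against flox, 2 rose and 8 fell in null against flox, and 9 rose and 1 fell in null Eα against null. Their summed signal, on a log2 scale, was 14.21 to 14.26 in null Eα cells, 13.35 to 13.56 in null cells and 14.38 to 14.41 in flox cells, and the brightest by mean over the 9 arrays were Tdgf1 and Utf1, though Nanog, at 11.91 to 11.97, was the brightest in flox cells. Of 14 fibroblast genes, Col1a2 among them, 12 rose in null Eα against flox and 11 in null against flox, and none fell. In null Eα against null, 1 rose and 8 fell. Their summed signal was 12.10 to 12.46 in null Eα cells, 13.05 to 13.22 in null cells and 9.75 to 9.90 in flox cells, with Col1a1 and Col1a2 brightest and Meox1 dim on all arrays. Of 9 trophoblast genes, 2 rose and 3 fell in null Eα against flox and 2 rose and 4 fell in null against flox. In null Eα against null, 2 rose and 1 fell. Their summed signal was 10.28 to 10.42 in null Eα cells, 9.33 to 9.45 in null cells and 10.91 to 10.96 in flox cells, with Tfap2c and Plet1 brightest and Tpbpa and Elf5 dim in every group. The part of these markers in the Peg10, Sgce and Mest values was not tested. In such bulk samples, fewer cells of a type and less RNA per cell cannot be told apart.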

How the data were processed

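The authors' deposited values were log2 signals made with RMA, per the submitters' processing notes, which give no version. Whether the 9 arrays were normalized together is not given in the sources used here. The table held 35556 features. A platform annotation listed 23410 of them, 21789 with 1 symbol and 1621 with several, and 12146 were not listed. Features with several symbols were left out, and the feature with the highest mean was kept for the 999 genes with several features, which gave 19938 genes. A RefSeq table (GRCm38.p6) gave a chromosome and gene order for 19856 of them. The few arrays per group limit the precision, and scan dates are not used here.

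Group means over all 9 arrays were fitted by lmFit and moderated by eBayes (limma 3.58.1, R 4.3.3, 6 residual and 4.04 prior degrees of freedom), with Benjamini-Hochberg adjustment over all genes and a threshold of 0.05. The fit was first tested on simulated data. Figures were drawn with matplotlib 3.10.9. Groups were taken from the labels. Replicate numbers were not used to pair the samples in the main fit. Correlations of same-numbered deviations were -0.03 to 0.26. For replicate 3 they exceeded the highest other-numbered correlation in each comparison, with 0.26 against -0.11 for null Eα and null. They did not for replicate 1 in null against flox and in null Eα against null, or for replicate 2 in null Eα against flox. Whether same-numbered samples shared a batch was not tested.

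The members and gene lists were chosen with earlier results of these data known. Besides the 6 members, neighbours are named where called with a difference of at least 1 log2 unit, at most 4 per locus and comparison. From the imprinted and regulator lists, the 3 largest rises and falls per comparison could be named. Markers are given as counts with the 2 brightest, and profile likeness as the 5 nearest genes among the symbols kept in that search. Klf14, Asb4 and Pon3 are also named with their values as maternally expressed neighbours, a choice made after their values were seen. Alternatives covered normalization, centring, a filter on dim genes, the variance prior, the arrays in the fit, the replicate block, averaging of features and leaving out each array.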

Additional observations from a re-analysis of the deposited data

How the results depend on the processing

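The median difference of the 6 genes was -1.07 (quantile normalization) and -1.02 (each chromosome centred) for null against flox, and -1.44 and -1.04 for null Eα against flox, or -0.74 with the first of the 5 stretches of chromosome 6 centred, a scaling chosen after seeing the data. For null Eα against null it turned to 0.10 with chromosomes centred and 0.50 with that stretch centred, where Peg10, Sgce and Mest were 0.54, 0.39 and 0.68 with chromosomes centred and 0.94, 0.79 and 1.08 with the stretch centred. Ppp1r9a turned to 0.050 and 0.35 under these scalings for null Eα against flox, and to 0.21 with that stretch centred for null Eα against null. Peg10, Sgce and Mest kept their sign against flox in all 18 alternatives, but this count is no measure of robustness. Several alternatives, such as the variance prior, the replicate block and averaging of features, leave these differences unchanged by construction. Called neighbours numbered 33 for null against flox and 33 for null Eα against null with chromosomes centred (27 higher and 6 lower, and 20 higher and 13 lower), and 20 (7 higher, 13 lower) with quantile normalization and 18 (5 higher, 13 lower) without dim genes for null Eα against flox. With each array centred on its median, 12 were higher and 15 lower there. Slc25a13 turned to 0.12 for null Eα against null with chromosomes centred (limma adjusted p = 0.267). Leaving out single arrays gave 9535 to 11652 called genes for null against flox, 10783 to 13041 for null Eα against flox and 4726 to 7859 for null Eα against null, with medians of the 6 genes of -1.34 to -1.16, -1.73 to -1.60 and -0.36 to -0.21, and 17 to 22, 26 to 34 and 14 to 21 called neighbours. The replicate block gave 11298, 12935 and 6602 called genes and 21, 33 and 21 called neighbours in the same order, and of the named genes it changed the call of Pdk4 for null Eα against null (-0.45, limma adjusted p = 0.0283). Dim signals such as those of Mest without β-catenin set a floor, so their differences understate the change. Centring sets the median of the members' own chromosome or stretch to 0 and so shifts all members together. Which scaling reflects the cells was not tested.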
